A study of Mus musculus with 24 samples.

Results

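The 5 genes described here, Cd79a, Cd79b, Ms4a1, Jchain and Mzb1, are markers of B cells and plasma cells. They were taken by symbol from the 16730 genes measured in epididymal white adipose tissue (eWAT), and immunoglobulin genes were not included. No filter on the values of the 5 genes was used, but earlier results of these data were known at the choice. Bulk RNA of eWAT from 24 male mice was counted by QuantSeq, which reads 50 bases at the 3′ end of each mRNA. Mice carried loxP sites around exon 3 of Lama4, which encodes the laminin α4 chain of basement membranes, in all 4 groups of 6. The controls (Lama4 fl/fl) were floxed littermates, and the knockouts (Lama4 AKO) also carried adiponectin-Cre, which acts in adipocytes. Each genotype was fed chow or a diet with 45% fat (HFD) for 20 weeks, and mice were 24 to 26 weeks old. The study set out to learn how loss of adipocyte laminin α4 alters fat tissue and its inflammation. The labels name each library by diet, genotype and number and state no dissection or sequencing batch.

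B cells recognise antigen through a surface immunoglobulin that signals through a pair of partner chains, and activated B cells can become plasma cells, which fill their endoplasmic reticulum with antibody for secretion. Both cell types live among adipocytes and in lymphoid clusters of visceral fat, and obesity is known to bring B cells into this tissue. Cd79a and Cd79b encode those partner chains (Igα and Igβ), and Ms4a1 encodes CD20, a membrane protein of B cells that plasma cells lose. Jchain encodes the chain that joins units of IgM and IgA, and Mzb1 a chaperone of the endoplasmic reticulum that assists antibody assembly. Jchain and Mzb1 are also made by plasmacytoid dendritic cells, so that markers of these cells are given beside them. In bulk tissue, fewer cells of a type and less RNA per cell cannot be told apart.

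The RefSeq promoter table held 2 of the 5 members, Cd79a, a B cell marker, and Jchain, a plasma cell marker. Both windows run from 250 bases before to 50 bases after the start of transcription given by RefSeq on GRCm38.p6. For Cd79a the gene start given below, 24897381, lies within the 250 bases before the RefSeq start. The windows are given because no promoter of another member was available, and not because of how the 2 genes moved across mice. Capitals mark matches to CAGGTG (an E-box bound by E2A) and AGGAAGTG (an ETS site of the PU.1 type), searched on both strands.
Cd79a, chr7:24897247-24897546, forward strand: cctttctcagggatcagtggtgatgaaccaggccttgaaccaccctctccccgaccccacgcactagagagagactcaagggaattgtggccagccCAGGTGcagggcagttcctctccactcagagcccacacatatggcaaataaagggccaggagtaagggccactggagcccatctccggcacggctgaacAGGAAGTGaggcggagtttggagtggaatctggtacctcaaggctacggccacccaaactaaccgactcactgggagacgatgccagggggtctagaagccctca
Jchain, chr5:88527848-88528147, reverse strand: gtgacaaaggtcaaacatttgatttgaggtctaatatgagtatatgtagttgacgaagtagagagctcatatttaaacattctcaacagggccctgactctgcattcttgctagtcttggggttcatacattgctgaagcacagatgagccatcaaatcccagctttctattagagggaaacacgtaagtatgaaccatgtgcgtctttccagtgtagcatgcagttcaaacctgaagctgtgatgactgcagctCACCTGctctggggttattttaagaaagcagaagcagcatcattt
The E-box lies at bases 97 to 102 of the Cd79a window on the sense strand and, as its complement CACCTG, at bases 256 to 261 of the Jchain window. It occurs in 20.2% of 32851 promoters of this length. The ETS site lies at bases 196 to 203 of the Cd79a window alone and occurs in 4.07% of promoters. The octamer ATTTGCAT, present in 1.74% of promoters, and the letters CCCNNGGGA of an EBF site, present in 6.56%, had no match in either window. No overlap exists between the matches in a window, and a match is a description of the letters only.

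On the GRCm38 mouse reference, Cd79a (ENSMUSG00000003379) lies on the forward strand of chromosome 7 from 24897381 to 24902197. The other members lie on reverse strands. Cd79b (ENSMUSG00000040592) spans 106311341 to 106314762 on chromosome 11, and Ms4a1 (ENSMUSG00000024673) spans 11249675 to 11266241 on chromosome 19. Jchain (ENSMUSG00000067149) spans 88519809 to 88527891 on chromosome 5, and Mzb1 (ENSMUSG00000024353) spans 35647267 to 35649367 on chromosome 18. The antisense gene 4930526L06Rik overlaps Ms4a1, and a Spata24 gene model on the same strand overlaps Mzb1. Neither of these overlapping models is among the 16730 genes, so that the assignment of reads from the shared stretch cannot be seen.

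The libraries held between 5579590 and 18764516 counts, the lowest in chow-fed Lama4 AKO replicate 5. Levels below are in CPM, counts relative to the TMM-scaled library size. Of the 16730 genes, 15020 reached 1 CPM in 3 or more libraries and were tested, all 5 members among them. Lama4 itself had a mean log2 CPM of 6.46 ± 0.76 (SD, n = 6) in controls on chow. Libraries with the knockout label had 6.69 ± 0.40 on that diet, and on HFD the values were 6.19 ± 0.82 in controls and 5.61 ± 0.47 in knockouts. It did not pass the test by genotype (edgeR adjusted p = 0.980 on chow and 0.347 on HFD). Reads of the 3′ end lie outside the deleted exon and do not measure its loss, and genotypes are taken from the labels. By quantitative PCR the study reports a partial knockdown of Lama4 in eWAT of chow-fed knockouts. Why the counts on chow did not show such a difference was not tested. Adipocyte markers, with Adipoq and Fabp4 among them, were present in every library. An earlier analysis of these data inferred 19 mice to be those left after the outlier removal that the study's methods mention. This set lacks chow-fed Lama4 fl/fl replicate 3, chow-fed Lama4 AKO replicate 5 and HFD-fed Lama4 fl/fl replicates 3, 4 and 6. Results are given for all 24 mice and, where they differ, for those 19.

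Among the B cell genes, Cd79b was detected with at least 9 counts in every library. Its level in chow-fed Lama4 fl/fl mice was 1.55 CPM at the lowest, 3.90 at the median and 10.7 at the highest. In chow-fed Lama4 AKO mice these values were 1.90, 2.72 and 13.3 CPM. HFD-fed Lama4 fl/fl mice held both the lowest and the highest libraries of the series for this gene, with 0.711, 8.94 and 35.5 CPM. HFD-fed Lama4 AKO mice had 2.33, 6.79 and 29.2 CPM. All 4 groups overlapped, although 2 HFD-fed mice of each genotype exceeded every chow-fed mouse of their genotype.

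Ms4a1 had 1.03, 2.19 and 8.53 CPM (lowest, median and highest) in chow-fed Lama4 fl/fl mice and 1.31, 3.15 and 11.8 CPM in chow-fed Lama4 AKO mice. On HFD it had 0.553, 5.87 and 15.1 CPM in Lama4 fl/fl mice and 0.420, 3.01 and 15.5 CPM in Lama4 AKO mice. The 4 groups overlapped, and in the HFD-fed Lama4 AKO group 2 of the 6 mice lay below every chow-fed Lama4 AKO mouse while 1 lay above them all. Cd79a was near the limit of detection, with no count in 5 libraries and 36 counts at most. It had 0, 0.0958 and 0.575 CPM in chow-fed Lama4 fl/fl mice and 0, 0.0655 and 1.02 CPM in chow-fed Lama4 AKO mice. On HFD it had 0, 0.339 and 2.17 CPM in Lama4 fl/fl mice and 0.0893, 0.299 and 1.34 CPM in Lama4 AKO mice. A count of 0 allows up to 3 counts, or 0.170 to 0.512 CPM depending on the library, which exceeds the group medians of both chow-fed groups. Limits of this kind cover counting error only.

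**Figure D1:**
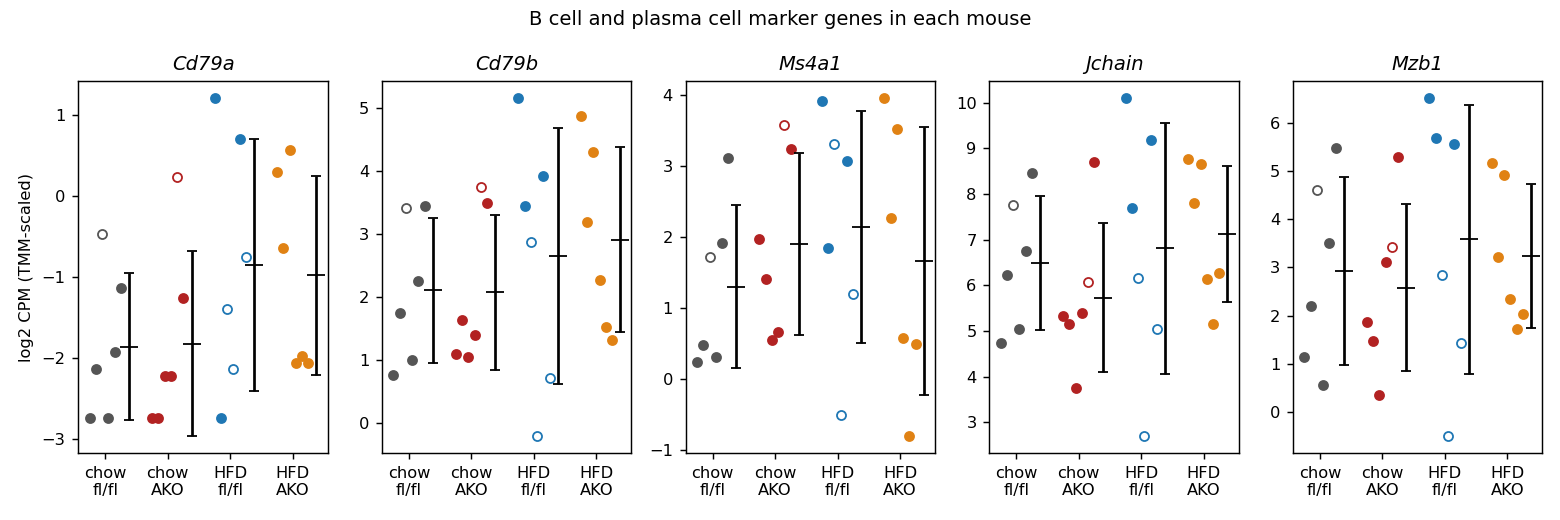
Expression of the 5 genes in each mouse, as TMM-scaled log2 CPM on separate vertical axes, for controls (fl/fl) and knockouts (AKO) on either diet (n = 6 per group). Open points are the 5 libraries that the set of 19 mice lacks, and bars give the mean ± SD over all 6. All groups overlap for every gene, and HFD-fed Lama4 fl/fl replicate 4 is the lowest library for Cd79b, Jchain and Mzb1.

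Every library held at least 80 counts of the plasma cell gene Jchain. Chow-fed Lama4 fl/fl mice had 26.6 CPM at the lowest, 91.3 at the median and 349 at the highest, and chow-fed Lama4 AKO mice 13.3, 41.0 and 415 CPM. HFD-fed Lama4 fl/fl mice ranged from 6.32 to 1099 CPM around a median of 140 CPM, a 174-fold span within 1 group. HFD-fed Lama4 AKO mice had 35.4, 150.0 and 437 CPM. The ranges of all groups overlapped, and the widest of them contained the other 3.

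Mzb1 had 1.32, 7.85 and 44.6 CPM in chow-fed Lama4 fl/fl mice and 1.12, 5.98 and 38.8 CPM in chow-fed Lama4 AKO mice. In HFD-fed Lama4 fl/fl mice it had 0.553, 27.1 and 91.2 CPM, a 165-fold span. In HFD-fed Lama4 AKO mice it had 3.15, 7.01 and 35.7 CPM, which lay within the range of the chow-fed Lama4 AKO mice. Over all 24 mice the groups overlapped, and replicates 1, 2 and 5 of the HFD-fed controls were above every other mouse of the series. Those 3 are the only HFD-fed controls kept in the set of 19 mice.

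The spread between mice of 1 group was wide for all 5 genes. The within-group SD of log2 CPM was 1.23 for Cd79a, 1.51 for Cd79b, 1.52 for Ms4a1, 1.91 for Jchain and 2.05 for Mzb1, against a median of 0.42 over all genes tested. Mzb1 ranked 27 and Jchain 45 of 15020 genes from the top of this measure, Ms4a1 131, Cd79b 138 and Cd79a 374.

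Comparing HFD with chow, all 5 genes had fitted levels above chow in both genotypes, but none was called. To be called, a gene had to change by 1.5-fold or more with a nominal p of 0.001 or less and reach 2 CPM in the group with the highest mean. Cd79a could not meet the last of these with 24 mice (0.734 CPM in its highest group) or with 19 mice (1.22 CPM). In Lama4 fl/fl mice the log2 fold change was 1.97 ± 0.998 (SE) for Cd79a, 1.12 ± 0.77 for Cd79b and 1.07 ± 0.78 for Ms4a1. For the plasma cell genes it was 1.31 ± 0.96 for Jchain and 1.18 ± 0.98 for Mzb1. In edgeR's quasi-likelihood test the adjusted p-values ran from 0.571 to 0.730, and 0 of the 5 members were called beside 0.173% of all genes. None had an unadjusted p under 0.05, beside 9.01% of all genes. The 95% interval of Jchain ran from a log2 fold change of -0.67 to 3.29, so that neither no difference nor a several-fold one was outside it. With replicate 1 of the HFD-fed controls left out, the log2 fold changes were 0.37 for Cd79b, 0.42 for Jchain and 0.57 for Mzb1. Limma-voom with sample quality weights turned the sign of both plasma cell genes, to -0.72 for Jchain and -0.24 for Mzb1.

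In Lama4 AKO mice the diet difference was 1.58 ± 1.08 for Cd79a, 1.04 ± 0.78 for Cd79b and 0.24 ± 0.78 for Ms4a1, again on the log2 scale. It was 1.02 ± 0.95 for Jchain and 0.42 ± 0.99 for Mzb1. Adjusted p-values lay between 0.272 and 0.839, and 0 of 5 were called beside 4.12% of all genes. None had an unadjusted p under 0.05, beside 39.8% of all genes, or an adjusted p of 0.05 or less, beside 22.1%. The sign of Ms4a1 and Mzb1 rested on single mice, since without HFD-fed Lama4 AKO replicate 1 their log2 fold changes were -0.34 and -0.07.

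Over both genotypes, Cd79a was 3.43-fold higher on HFD (log2 fold change 1.78 ± 0.74, edgeR adjusted p = 0.0923) and was the only member with an unadjusted p under 0.05, beside 35.5% of all genes. DESeq2 gave 2 such members, Cd79a and Cd79b, beside 38.1% of all genes. The fold was 2.11 for Cd79b (adjusted p = 0.159), 2.24 for Jchain (0.214), 1.57 for Ms4a1 (0.397) and 1.74 for Mzb1 (0.409). None was called beside 2.25% of all genes, and none reached an adjusted p of 0.05 beside 12.4%. The comparisons share their groups, so that their values are not independent of each other.

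**Figure D2:**
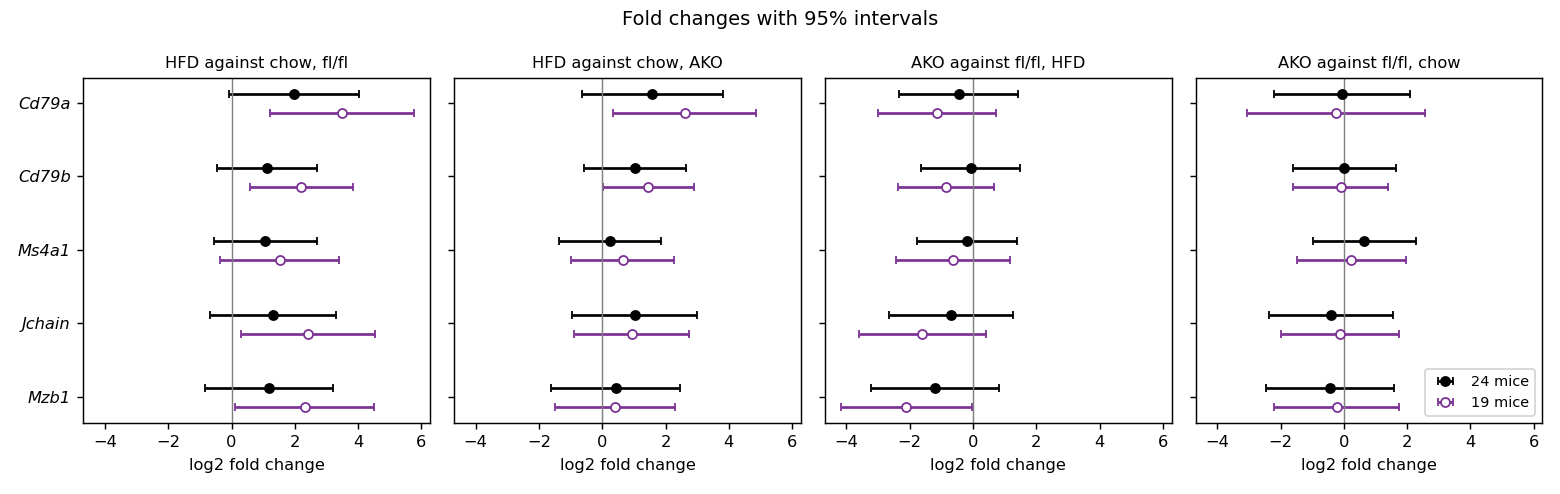
Log2 fold changes of the 5 genes with 95% intervals from edgeR in 4 comparisons, for all 24 mice (filled black points) and the set of 19 mice (open purple points). With 24 mice every interval contains 0. With 19 mice the diet intervals in Lama4 fl/fl mice exclude 0 for all but Ms4a1, as do those of Cd79a and Cd79b in Lama4 AKO mice and of Mzb1 by genotype on HFD, before adjustment for the number of genes tested.

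In the set of 19 mice the diet difference in Lama4 fl/fl mice was larger. Cd79a had a log2 fold change of 3.49 ± 1.09 (edgeR adjusted p = 0.0228) and Cd79b one of 2.21 ± 0.77 (adjusted p = 0.0389). For Cd79a the 3 HFD-fed controls of this set held 36, 0 and 24 counts, and its limma-voom adjusted p was 0.203. Jchain had 2.41 ± 1.01 (adjusted p = 0.0783), Mzb1 2.31 ± 1.05 (0.103) and Ms4a1 1.52 ± 0.90 (0.212). At an adjusted p of at most 0.05 this gave 2 of 5 members, both higher on HFD, beside 29% of all genes in the same fit (13.6% higher on HFD), and 0 of 5 met the call rule beside 11.8%. In Lama4 AKO mice no member had an adjusted p of 0.05 or less, beside 40.3% of all genes. The call rule took no member in the other 5 comparisons either, beside 15.7% of all genes for diet in Lama4 AKO mice, 0.565% and 0.209% for genotype on HFD and on chow, 21.4% for diet over both genotypes and 0.68% for the interaction. With limma-voom the 2 members were Cd79b and Mzb1 instead, so that Cd79b was the one shared by both tools. Over both genotypes 3 members passed an adjusted p of 0.05 with edgeR (Cd79a, Cd79b and Jchain), all higher on HFD, beside 51.9% of all genes (25.2% higher on HFD). With limma-voom the 3 were Cd79b, Jchain and Mzb1, beside 7837 of 14863 genes, and Cd79a had an adjusted p of 0.0526. With edgeR an unadjusted p under 0.05 was reached by 4 members for diet in Lama4 fl/fl mice (41.4% of all genes), 2 in Lama4 AKO mice (49.2%) and 3 over both genotypes (57.8%). It was reached by 1 for genotype on HFD (11.1%) and by 0 for genotype on chow (8.5%) and the interaction (12.2%). The 3 HFD-fed Lama4 fl/fl mice left out of this set are the 3 lowest of their group for Cd79b, Jchain and Mzb1, and each of the 2 chow-fed mice left out is the highest of its group for Cd79a.

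No genotype difference passed the test on either diet. On HFD the log2 fold change of Lama4 AKO against Lama4 fl/fl mice was -0.45 ± 0.91 for Cd79a, -0.07 ± 0.76 for Cd79b and -0.18 ± 0.77 for Ms4a1. It was -0.68 ± 0.95 for Jchain and -1.20 ± 0.98 for Mzb1, with adjusted p-values from 0.540 to 0.970. None was called beside 0.173% of all genes. No direction can be read for any member. Limma-voom gave positive values for Cd79a, Cd79b and Jchain, and sample quality weights gave 0.48 for Mzb1. With replicate 1 of the HFD-fed controls left out, all but Mzb1 were above 0. In the 19 mice Mzb1 had a log2 fold change of -2.12 ± 0.99 with an unadjusted p of 0.0457 and an edgeR adjusted p of 0.432. That set lacks the 3 HFD-fed controls with the lowest Mzb1 levels.

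On chow the genotype difference was -0.06 ± 1.04 for Cd79a, 0.01 ± 0.79 for Cd79b, 0.65 ± 0.79 for Ms4a1, -0.40 ± 0.95 for Jchain and -0.43 ± 0.99 for Mzb1 on the log2 scale. All adjusted p-values were at least 0.964, and 0 of 5 were called beside 0.113% of all genes. The interaction, the diet difference in Lama4 AKO minus that in Lama4 fl/fl mice, lay between -0.84 and -0.08 with standard errors of 1.09 to 1.56, and 0 of 5 were called beside 0.386% of all genes, of which 0.00666% had an adjusted p of 0.05 or less. Its interval for Mzb1 ran from -3.62 to 2.10, so that differences of several-fold in the response to HFD were not detectable with this spread. No direction can be read from the interaction either, since limma-voom gave values above 0 for all but Ms4a1 (1.11 for Jchain), as did sample quality weights (2.38 for Jchain). No member had an unadjusted p under 0.05 for genotype on HFD, genotype on chow or the interaction, with edgeR or with DESeq2, beside 14.8%, 5.85% and 15.6% of all genes with edgeR.

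The 5 genes rose and fell together from mouse to mouse. After subtraction of the group means, all 10 pairs were positively correlated across the 24 mice, from r = 0.655 (rho = 0.623) for Cd79a and Mzb1 to r = 0.963 (rho = 0.964) for Jchain and Mzb1. Permutation within groups gave the last pair p = 1e-05 for r and for rho, the smallest that 100000 permutations can give, and an adjusted p of 2e-05 over the 10 pairs. For Cd79a and Mzb1 the permutation p was 0.002 for r and 0.003 for rho, and the adjusted p for r was 0.002. These tests set a pair against no correlation, not against other genes. Of 13253 other genes with a symbol, 1 was more like Mzb1 by r than Jchain was. The number more like Mzb1 was 3 for Cd79b, 137 for Ms4a1 and 1184 for Cd79a. Cd79b had r = 0.926 with Jchain and 0.928 with Mzb1, beside 0.903 with Ms4a1 and 0.776 with Cd79a. For this gene r did not set the B cell markers apart from the plasma cell markers. Without the 2 mice farthest from the median, r was 0.950 for Jchain with Mzb1 and 0.622 for Cd79a with Mzb1. In the set of 19 mice these were 0.933 and 0.650. Within single groups of 6, r of Jchain with Mzb1 was 0.982 in controls and 0.946 in knockouts on chow, and 0.975 and 0.958 on HFD.

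**Figure D3:**
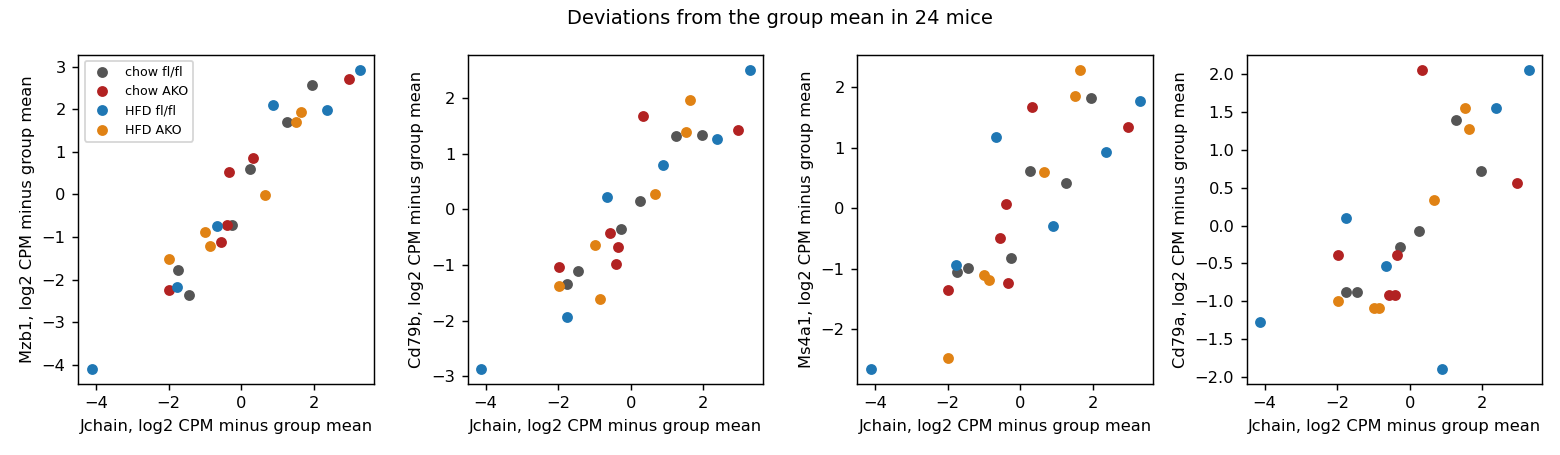
Each of the 24 mice by the deviation of Jchain from its group mean (horizontal, log2 CPM) against that of Mzb1, Cd79b, Ms4a1 or Cd79a (vertical, log2 CPM), coloured by group. Points of Mzb1 lie closest to a line (r = 0.963), and the point of Cd79a at the bottom right is HFD-fed Lama4 fl/fl replicate 2, with a count of 0 for that gene.

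In 4 libraries all 5 genes were among the 8 highest of the 24. These were HFD-fed Lama4 fl/fl replicates 1 and 5 and HFD-fed Lama4 AKO replicates 1 and 3. Chow-fed Lama4 fl/fl replicates 1 and 4 and chow-fed Lama4 AKO replicate 3 had all 5 among the 8 lowest. HFD-fed Lama4 fl/fl replicate 4 was the lowest of all for Cd79b, Jchain and Mzb1. Chow-fed Lama4 AKO replicate 5 ranked 5 for Cd79a, 5 for Cd79b and 3 for Ms4a1, against 15 for Jchain and 10 for Mzb1, and it held 392 Jchain and 69 Ms4a1 counts, a ratio of 5.68.

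Of 13253 genes with a symbol, those most like Cd79a across the 24 mice within groups included Cxcl13 (r = 0.84), a chemokine that draws B cells, Ighd (0.83), the IgD heavy chain, Serpini1 (0.82) and Spib (0.82), a transcription factor of B cells and plasmacytoid dendritic cells. Those most like Jchain were Gpr55 (0.98), a lipid-responsive receptor, Iglv1 (0.96), a λ light chain segment, Pou2af1 (0.96), a coactivator in B lineage cells, Acap1 (0.95) and Ly6c2 (0.94). The same ranking was then read for the other members, after their values were seen. It was led by Pou2af1 for Cd79b (0.96) and for Mzb1 (0.97), and by Tnfrsf13c, the receptor of the B cell survival factor BAFF, for Ms4a1 (0.94). These coefficients describe 24 libraries that share tissue and depth, and immunoglobulin segments such as Ighd and Iglv1 can share reads with close copies.

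Other genes of the B lineage were read from 4 lists. Of 14 genes of B cell receptor signalling and co-receptors, all 14 were tested and none was called in any of the 6 comparisons. Their median log2 fold change on HFD was 0.60 in controls and 0.86 in knockouts, against medians of -0.0081 and -0.0031 over all genes, and over both genotypes all 14 lay above 0. Cd37, a tetraspanin, had medians of 40.6 CPM in controls and 35.4 CPM in knockouts on chow, and of 64.2 and 68.8 CPM on HFD. Its log2 fold change over both genotypes was 0.90 ± 0.30 (edgeR adjusted p = 0.0503). The kinase Blk had a log2 fold change of 1.31 ± 0.45 (adjusted p = 0.0539) at levels of 5.66 CPM or less. In HFD-fed Lama4 AKO mice Cd37 had at least 41.9 CPM in every library, beside summed B cell markers of 3.25 to 45.7 CPM. Which cells made the genes of the 4 lists was not tested.

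The 10 transcription factors of the B lineage held no call, and their median diet difference was 0.59 in controls and 0.0089 in knockouts. Spib stood at 1.61 ± 0.63 (adjusted p = 0.0800) over both genotypes. Ebf1, which specifies B cells but is also made by adipocyte precursors, stood at -0.79 ± 0.31 in Lama4 AKO mice (adjusted p = 0.0662) at levels of 107 CPM or more in every library. Of the 8 plasma cell genes none was called. Txndc5, a disulfide isomerase of the endoplasmic reticulum, had an adjusted p of 0.0318 over both genotypes (log2 fold change 0.54 ± 0.15), and Fkbp11, a prolyl isomerase of secretory cells, one of 0.0393 in Lama4 AKO mice (0.79 ± 0.27). An adjusted p of 0.05 or less was reached by 12.4% of all genes over both genotypes and by 22.1% in Lama4 AKO mice. Neither gene met the nominal p of 0.001, and both are also made by other secretory cells. The median of the 8 was 0.13 in controls and 0.42 in knockouts.

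Of 11 genes of B cell attraction and survival, 9 were in the table and 8 were tested, with no call. Their median diet difference was 0.53 in controls and 0.57 in knockouts. Ltb, a lymphotoxin that organises lymphoid tissue, stood at 2.61 ± 0.94 in Lama4 fl/fl mice (adjusted p = 0.448) and Tnfrsf13c at 2.25 ± 1.03 (0.533). On genotype, the medians of the 4 lists ran from -0.07 to 0.32 on HFD and from -0.09 to 0.71 on chow. In the 19 mice all 4 medians of genotype on HFD were below 0, at -0.21 for receptor signalling, -0.39 for transcription factors, -0.15 for plasma cell genes and -0.58 for attraction and survival, so that no direction can be read from them. The diet medians in Lama4 fl/fl mice were larger in the 19 mice, at 1.40, 0.90, 0.62 and 1.11 in the same order. In the interaction they ran from -0.84 to 0.27, with no call in any list. In the 19 mice the call rule took Cd37, Btk and Ltb in Lama4 fl/fl mice and Syk, Sdc1 and Fkbp11 in Lama4 AKO mice, all higher on HFD, beside the 11.8% and 15.7% of all genes that met it. Over both genotypes it took Cr2, Cd37, Blk, Btk, Blnk, Syk, Plcg2, Sdc1 and Fkbp11, beside 21.4%.

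**Figure D4:**
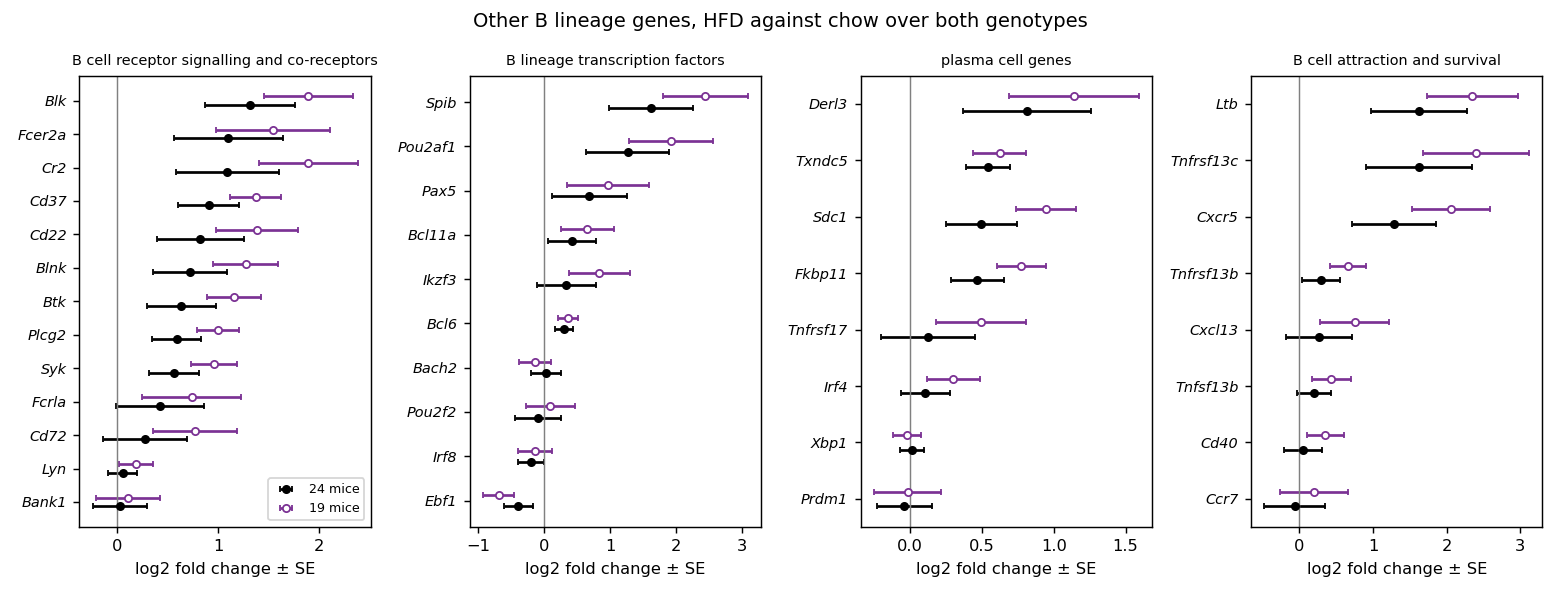
Log2 fold changes ± SE of HFD against chow over both genotypes for tested genes of 4 B lineage lists, with all 24 mice (filled black) and the set of 19 mice (open purple). The genes of receptor signalling that are plotted all lie above 0 in both sets, and Ebf1 is the lowest of the transcription factors.

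Markers of other cells moved with these genes in part. The 7 T cell markers summed to 79.7, 50.7, 67.4 and 52.5 CPM in the 4 libraries with all 5 members among the 8 highest, against medians of 22.8 CPM in controls and 19.5 CPM in knockouts on chow. The highest T cell sum, 126 CPM, belonged to chow-fed Lama4 AKO replicate 6, which also had the highest Jchain level of its group. The adipocyte sum of those 4 libraries lay between 8431 and 13473 CPM, below every chow-fed mouse. It was 43300 CPM in HFD-fed Lama4 fl/fl replicate 4, the library with the least Jchain. HFD-fed Lama4 AKO replicates 4 and 5 had adipocyte sums as low, 8380 and 8398 CPM, with macrophage sums of 3896 and 3664 CPM, yet B cell sums of 6.07 and 3.25 CPM. The part of adipocyte, T cell and macrophage content in the differences was not tested.

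**Figure D5:**
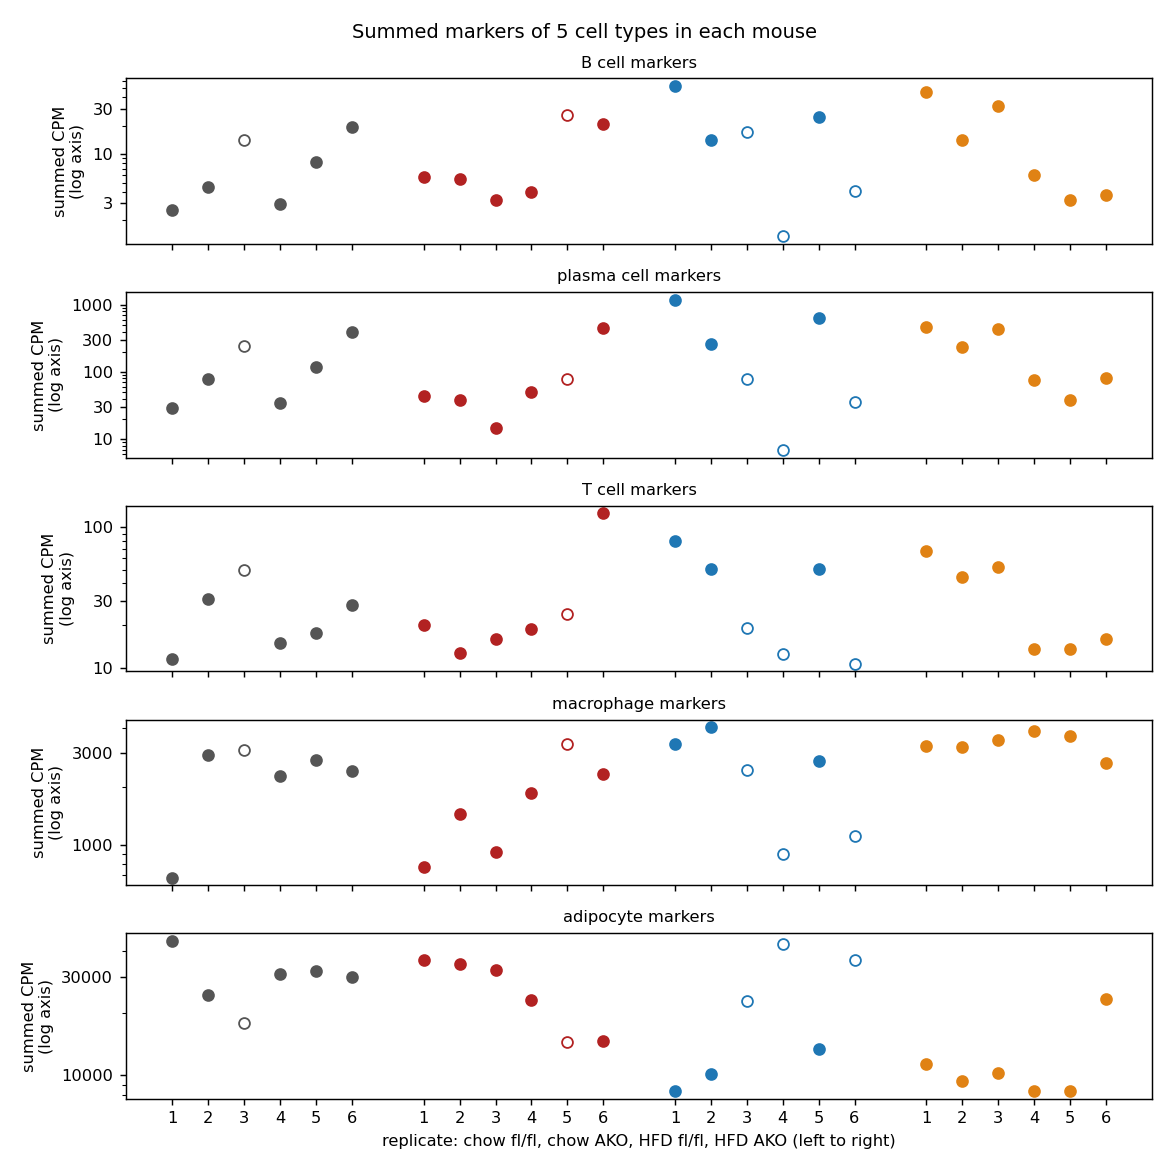
Summed CPM of markers of B cells (3 genes), plasma cells (2), T cells (7), macrophages (7) and adipocytes (7) in each of the 24 mice, on log axes, by group and replicate. Open points are libraries absent from the set of 19 mice. HFD-fed Lama4 AKO replicates 4 to 6 have B cell sums of 3.25 to 6.07 CPM beside macrophage sums of 2660 CPM or more.

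Over the groups, in the order controls and knockouts on chow, then controls and knockouts on HFD, the 7 macrophage markers summed to 677 to 3090, 771 to 3314, 901 to 4061 and 2660 to 3896 CPM. The 7 T cell markers summed to 11.4 to 49.3, 12.7 to 126, 10.6 to 79.7 and 13.5 to 67.4 CPM, and the 6 pan-leukocyte markers to 327 to 2770, 592 to 2340, 544 to 3279 and 1757 to 2945 CPM. The adipocyte sums were 17877 to 44839, 14550 to 36263, 8431 to 43300 and 8380 to 23353 CPM, and the 5 erythrocyte markers gave 1671 to 5279, 1409 to 4992, 1251 to 5698 and 1504 to 4435 CPM. In Lama4 AKO mice on HFD, Lep, which encodes leptin, had a log2 fold change of -2.10 ± 0.51 (edgeR adjusted p = 0.0170) and Itgax, made by macrophages and dendritic cells, one of 1.59 ± 0.54 (0.0389). At an adjusted p of 0.05 or less, beside 22.1% of all genes, 3 of 7 adipocyte markers were lower (Adipoq and Lipe with Lep). Of the 7 macrophage markers, 2 were higher, Itgax and Cd68 (1.46 ± 0.53, 0.0490), and 1 was lower, Cd163 (-1.02 ± 0.35, 0.0436), and 1 of 7 T cell markers was lower, Cd247 (-1.13 ± 0.34, 0.0277). In Lama4 fl/fl mice 0% of all genes reached that adjusted p with 24 mice. With 19 mice 29% did, among them 5 of 7 adipocyte markers, all lower, and 1 of 6 pan-leukocyte markers, higher. Plasmacytoid dendritic cell markers (4 of 5 in the table) summed to 5.05 to 14.6, 3.87 to 21.8, 3.27 to 10.1 and 5.77 to 16.8 CPM, and Ccr9 among them had a log2 fold change of -1.34 ± 0.40 on HFD over both genotypes (0.0378). Another of the 4, Pacsin1, stood at 0.12 ± 0.52 (0.884).

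Tissue beside the fat pad was read from 2 further lists. Of 7 markers of epididymal epithelium, 2 were in the table (Adam7, at 0 in 17 libraries, and Lcn5, at 0 in 20). Their sum was 17.6 CPM in chow-fed Lama4 fl/fl replicate 4, 3.24 CPM in chow-fed Lama4 AKO replicate 5 and under 1 CPM in the other 22. Of 5 markers of lymph node stroma, 2 were in the table (Chst4, and Glycam1, at 0 in 9 libraries), and they summed to 0.547 to 7.11, 0.261 to 7.83, 0.737 to 5.84 and 0.536 to 7.17 CPM. Glycam1, made by vessels through which lymphocytes enter lymph nodes, had a log2 fold change of 3.09 ± 0.95 on HFD over both genotypes (adjusted p = 0.0399) with a group mean under 2 CPM, beside -0.44 ± 0.53 for Chst4 (0.563). The part of lymph node tissue in the B cell values was not tested.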

How the data were processed

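Total RNA of eWAT from 24 mice was sequenced with Lexogen QuantSeq. The authors mapped and counted reads with the Lexogen pipeline V1.8.8 (GRCm38, mm10) and deposited raw counts per gene, without normalization; strand use in counting is not given in the sources used here. A second deposited table holds the counts divided by 1 size factor per library, a normalized signal (DESeq2 1.30 in R 4.0.3 per the labels), used for symbols and coordinates only. All columns matched a sample.

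Counts were fitted in R 4.3.3 with edgeR 4.0.16 (quasi-likelihood, TMM, 1 coefficient per group, 24 mice) on genes with at least 1 CPM in 3 mice, and p-values were adjusted by Benjamini-Hochberg over all genes tested. Calls followed the study's criteria; its test, limma-voom (limma 3.58.1), was an alternative beside DESeq2 1.42.0, RLE factors, no filter, 19 mice, sample quality weights, a replicate block, adjusted p of at most 0.05 and each mouse left out. The fits were tested on simulated data in which the spread of each gene was capped and the planted changes were large. That test does not show how well changes of the members, with their wide spread, are detected. Within groups, the 60 pairs of libraries differed by more than counting error (chi-square of at least 5.72 per degree of freedom).

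Members and lists were chosen with earlier results of these data known. Named genes are the members, from each list those called in any comparison and the 2 with the lowest p, and the 5 most like Cd79a and Jchain by Pearson r of deviations from group means; others are marked, and 1 gene is not reported here. Correlations used 100000 two-sided permutations within groups. Replicates are separate mice. Depth limits Cd79a most. Promoters are from RefSeq (GRCm38.p6).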

Additional observations from a re-analysis of the deposited data

How the results depend on the processing

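No member met the call rule in any comparison under any alternative, including each mouse left out in turn, for which the count was 0 throughout. A rule chosen after seeing the data was an adjusted p of at most 0.05 in the 19 mice. It gave 2 members for diet in Lama4 fl/fl mice and 3 over both genotypes, with edgeR and with limma-voom, but not the same ones. Of all 14863 genes, edgeR gave 4311 and 7718 (29% and 51.9%), and limma-voom 4591 and 7837. Of the members' log2 fold changes under the alternatives, 891 kept their direction and 69 changed sign, none of them called.

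Replicate numbers did not pair mice: of 36 same-numbered pairs 15 had r above 0.1 (range -0.53 to 0.71), and 5 of 24 libraries correlated best with their own number. The replicate block changed no member call and lowered the calls over all genes from 619 to 457 for diet in Lama4 AKO mice. It changed the sign for Cd79b (0.15 for genotype on HFD, 0.080 for the interaction), Cd79a (0.023 for genotype on chow) and Jchain (0.19 for the interaction).

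With limma-voom, log2 fold changes of the other sign were -0.032 for Ms4a1 by diet in Lama4 AKO mice. For genotype on HFD they were 0.11 for Cd79a, 0.24 for Cd79b and 0.34 for Jchain, and on chow -0.21 for Cd79b. For the interaction they were 0.34 for Cd79a, 0.45 for Cd79b, 1.11 for Jchain and 0.032 for Mzb1. With sample quality weights, diet in Lama4 fl/fl mice gave -0.72 for Jchain and -0.24 for Mzb1. Genotype on HFD gave 0.25 for Cd79a, 0.78 for Cd79b, 0.91 for Jchain and 0.48 for Mzb1, and on chow -0.58 for Cd79b and -0.10 for Ms4a1. The interaction gave 0.59 for Cd79a, 1.36 for Cd79b, 2.38 for Jchain and 1.53 for Mzb1. Genotype on chow gave 0.24 for Cd79a with DESeq2, and for Cd79b -0.10 in 19 mice and -0.14 in 19 mice with limma-voom. The cause of these changes was not tested.

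Leaving out 1 mouse changed the sign in these ranges. By diet in Lama4 AKO mice, Ms4a1 ran from -0.34 to 0.65 and Mzb1 from -0.069 to 1.502. By genotype on HFD, Cd79a ran from -0.98 to 0.25, Cd79b from -0.64 to 0.68, Ms4a1 from -0.78 to 0.25 and Jchain from -1.06 to 0.20. By genotype on chow, Cd79a ran from -1.08 to 0.75, Cd79b from -0.41 to 0.33, Jchain from -1.77 to 0.16 and Mzb1 from -1.52 to 0.32. For the interaction, Cd79a ran from -1.20 to 0.61, Cd79b from -0.65 to 0.66, Jchain from -0.84 to 1.06 and Mzb1 from -1.51 to 0.29. Diet in Lama4 fl/fl mice kept its sign for all 5, with Jchain between 0.42 (replicate 1 of the HFD-fed controls left out) and 1.86 (replicate 6 of the chow-fed controls left out). Counts of 36 or fewer limit Cd79a.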
